A study of Mus musculus with 2 samples.

Results

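The nuclear-encoded subunits of the respiratory chain and of ATP synthase were examined in Tregs of BLM-injured mice. Members were the symbols made of Ndufa, Ndufb, Ndufc, Ndufs or Ndufv and a number (complex I), Sdha to Sdhd (complex II), and those beginning with Uqcr (complex III), Cox4 to Cox8 (complex IV) or Atp5 (complex V), without pseudogenes, so that Ndufab1 and the assembly factors of complexes I and II were left out. The rule used symbols only and found 84 genes of the 24346 listed in each library. GFP+CD4+ cells of Foxp3-DTR-GFP (FDG) mice, in which cells that express Foxp3 carry GFP and a diphtheria toxin receptor, were collected from spleen and from lung on day 15 after intratracheal administration of 50 μg bleomycin (BLM). Both tissues came from BLM-treated FDG mice, and each tissue gave 1 library made from the pooled cells of 3 mice, so neither untreated Tregs nor the variation between mice was measured, and no p-value is given. Expression is in FPKM, by the paper's definition the fragments of a gene relative to transcript length and to all mapped fragments. The scaling that Cuffdiff applied between the libraries is not stated. Division by length allows genes of different length to be set side by side, although lung-to-spleen ratios still declined with length (below).

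The respiratory chain of the inner mitochondrial membrane passes electrons from NADH (complex I) and succinate (complex II) through complex III to complex IV, which reduces oxygen, while complexes I, III and IV pump protons. ATP synthase (complex V) uses the returning protons to make ATP. Complex II is encoded in the nucleus as a whole, whereas the other complexes combine nuclear subunits with subunits made inside the mitochondrion. Tregs are known to depend on oxidative metabolism more than effector T cells do, and complex III is needed for their suppressive function.

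All 84 genes lay on 19 nuclear chromosomes, and the mitochondrially encoded partners of these subunits had 0 symbols in the values analysed here. A gene was considered measured where the higher of its values was at least 1 FPKM, which held for 79 members and for 12094 symbols in all. The lowest 1-read steps of the FPKM scale allowed the reads behind a value to be estimated, and they summed to 131343 over the members in spleen and 210906 in lung. Members that reached 50 FPKM in either tissue rested on at least 118 estimated reads in spleen and 205 in lung. Intervals below are exact 95% intervals of the ratio of these reads. They cover counting error only, since reads of PCR copies are not independent molecules.

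Treg markers were present in both libraries. Summed over the list, the FPKM of 7 T cell markers was 4067 in spleen and 3922 in lung, which was 0.678% and 0.485% of all FPKM. None of them passed 1.5-fold in FPKM, and 3 were more than 1.5-fold lower in lung in TPM. The 6 Treg markers summed to 1328 and 2666 FPKM, with 4 more than 1.5-fold higher, including Foxp3 (18.7 and 41.8), and Il2ra lower (89.4 and 59.1). Transcripts that mark other cells were listed as well and differed by tissue. The 10 macrophage markers summed to 919 FPKM in spleen and 35254 in lung, which was 0.153% and 4.36% of all FPKM, with 8 of 10 more than 1.5-fold higher in lung. Neutrophil markers (5 of 5 higher) summed to 424 and 1205 FPKM, epithelial markers (4 of 5 higher) to 10.7 and 3122, and fibroblast markers (5 of 5 higher) to 0.290 and 163. In spleen, Sftpb, Sftpc, Col3a1 and Mgp were listed at 0. Of 3 measured endothelial markers, 2 were more than 1.5-fold higher in lung, Cldn5 (0.160 and 6.54 FPKM) and Egfl7 (0.101 and 8.04), and Pecam1 was lower (54.8 and 31.7). The list summed to 55.1 and 46.6 FPKM, most of it Pecam1, with Cdh5 at 0 in spleen and Kdr at 0 in lung. B cell markers (4 of 4 measured lower) summed to 239 and 123 FPKM, and exocrine pancreas markers (5 of 5 lower, 4 at 0 in lung) to 144 and 0.0620. The part of these cells in the values below was not tested, and a change in the number of cells of a type cannot be told apart from a change in RNA per cell.

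Respiratory chain genes were among the abundant transcripts of both libraries. The median level of the 79 measured members was 194 FPKM in spleen and 262 in lung, against 11.9 and 11.2 over all measured symbols, and 73 members reached 50 FPKM. Together the 84 genes took 18324 FPKM in spleen and 27480 in lung, or 3.06% and 3.40% of each library's sum. The most abundant members were Atp5b, the catalytic β subunit of ATP synthase, in spleen (722 FPKM) and Cox6b1, a complex IV subunit on the side of cytochrome c, in lung (1095 FPKM). They ranked 125 and 114 among all symbols of their libraries. Cox7b2, Cox8b and Cox8c were listed at 0 in both libraries, and Cox4i2 (0.372 FPKM in spleen, 0 in lung) and Ndufa4l2 (0 in spleen, 0.899 in lung) stayed below 1 FPKM.

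**Figure D1:**
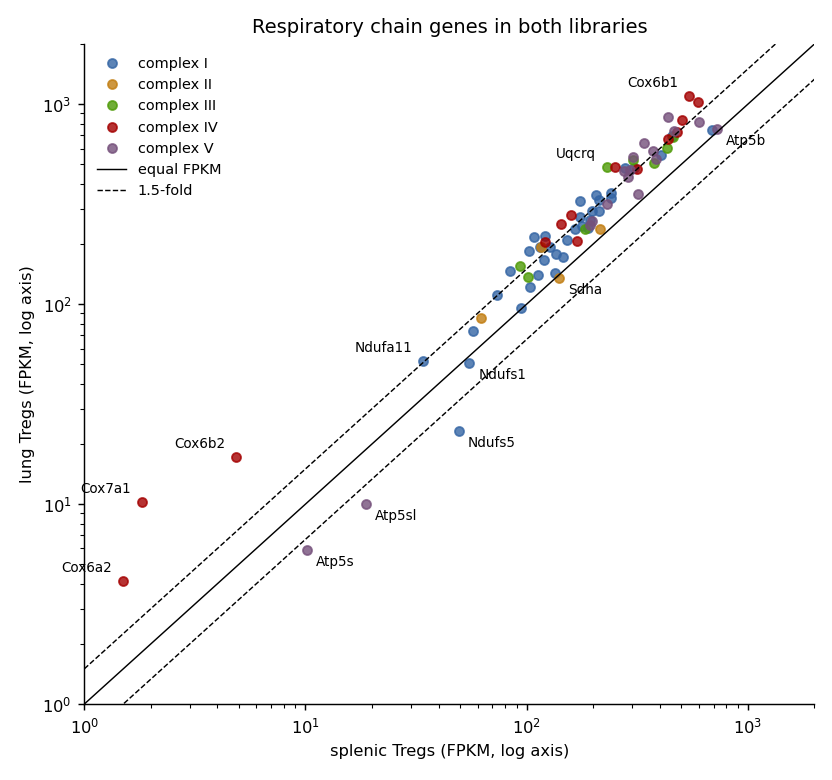
FPKM of the respiratory chain genes above 0 in both libraries, splenic Tregs on the x axis and lung Tregs on the y axis (both log axes), 1 point per gene and colours by complex. Most points lie between equal FPKM and the upper 1.5-fold line or just past it, Cox7a1, Cox6b2 and Cox6a2 stand far above the lines at low levels, and Ndufs5, Atp5s and Atp5sl lie below the lower line.

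In the deposited FPKM, most of these genes were modestly higher in lung Tregs. Of the 79 measured members, 74 had a lung-to-spleen ratio above 1 and 5 had one below 1. The median log2 ratio was 0.59 (1.502-fold), whereas that of all measured symbols was 0.03. Ratios were taken after setting values below 0.1 FPKM to 0.1. More than 1.5-fold higher values in lung were found for 40 of 79 members, where 27.4% of all symbols passed this fold. More than 1.5-fold lower values were found for 3 members, Ndufs5, Atp5s and Atp5sl, where 25.4% of all symbols did. Past 2-fold, 6 members were higher (17.8% of all symbols) and Ndufs5 alone was lower (15.5% of all symbols). The upper threshold ran through a dense group, with Ndufb9 just past it (1.502-fold) and Atp5d just short of it (1.498-fold), whereas on the lower side Atp5s (1.72-fold lower) was well apart from Ndufs1 (1.08-fold lower). The counting interval reached below 1.5-fold for 15 of the 40 higher members, and for Atp5s among the lower ones it crossed the lower threshold.

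The size of the difference depended on how the libraries were scaled. The FPKM summed to 599633 in spleen and 808853 in lung, and rescaling both to the same sum (TPM) changed every log2 ratio by -0.43. On that scale the median of the members was 0.16 and that of all symbols -0.40, so the members stood 0.56 above all symbols on both scales. After the rescaling, 56 of 79 members were above 1, 4 were more than 1.5-fold higher (17.5% of all symbols), and 3 were more than 1.5-fold lower (41.7% of all symbols). Of the 4 higher members, Uqcrq alone reached 50 FPKM. The others, Cox7a1, Cox6b2 and Cox6a2, rested on about 3.52, 14.4 and 7.32 reads in spleen. The difference from other genes was also smaller among abundant transcripts. At 50 FPKM or more, the median log2 ratio in FPKM was 0.59 for members and 0.27 for all symbols.

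**Figure D2:**
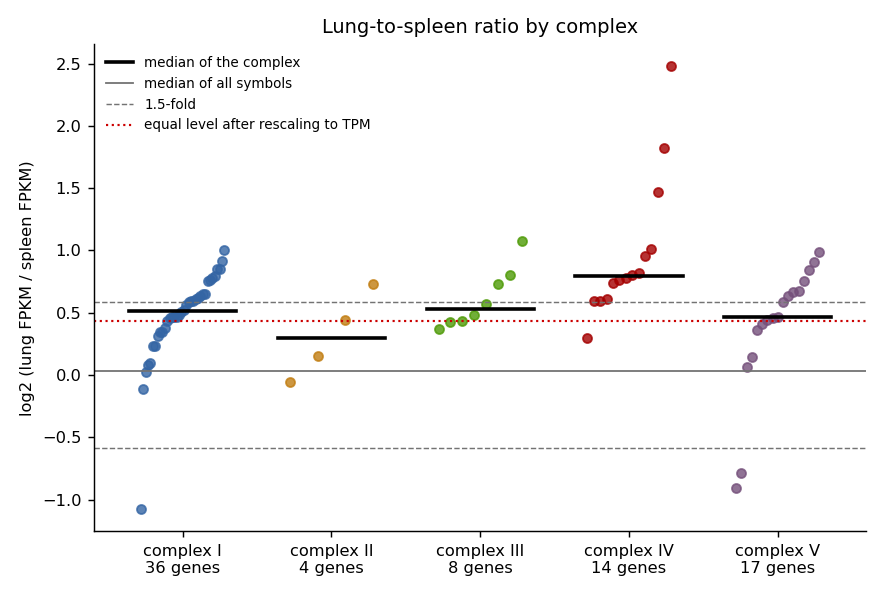
Log2 ratio of lung to spleen FPKM for the 79 measured members by complex, 1 point per gene sorted within each complex, with the median of each complex as a black bar. Complex IV has the highest median (0.79) and 13 of its 14 genes above the upper 1.5-fold line, and the dotted line marks the ratio that would be equal after rescaling to TPM, above which the medians of complexes I, III, IV and V lie and below which that of complex II lies.

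In complex I, the NADH dehydrogenase and the largest complex, 16 of 36 measured genes were more than 1.5-fold higher in lung (27.4% of all symbols). Ndufs5 alone was lower (25.4% of all symbols). In TPM, 0 of 36 were more than 1.5-fold higher (17.5% of all symbols) and 1 was lower (41.7%). The median log2 ratio of the complex was 0.51 in FPKM and 0.08 in TPM. Its most abundant gene was Ndufa3, a small accessory subunit, with 689 FPKM in spleen and 739 in lung, a difference of only 1.07-fold that falls to 0.795-fold after TPM rescaling. The 7 core subunits carry the flavin and the iron-sulfur clusters, and they ranged from 55.1 to 177 FPKM in spleen. Among them Ndufs3, which was singled out after its values were seen, had 108 FPKM in spleen and 216 in lung (2.01-fold, interval 1.86 to 2.17). Ndufs8 had 175 and 273 FPKM (1.57-fold), and Ndufv1, which binds NADH, 73.7 and 111 FPKM (1.51-fold). Ndufs7, Ndufv2 and Ndufs1 did not reach 1.5-fold. Ndufs7, which lies near the quinone site, had 177 and 247 FPKM, and Ndufv2 had 112 and 139. Ndufs1, the largest of them, had 55.1 FPKM in spleen and 50.9 in lung (ratio 0.923, interval 0.857 to 0.994). Ndufs1 has a longer transcript (2661 nt) than Ndufs3 (1046 nt), and relative to other symbols of its length class its log2 ratio was 0.05.

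The accessory subunits of complex I had a median log2 ratio of 0.52 in FPKM, with 13 of 29 past 1.5-fold (27.4% of all symbols). In TPM, 0 passed it. Ndufa4, listed here by its symbol although its protein is now assigned to complex IV, had 453 FPKM in spleen and 695 in lung (1.54-fold). The exception was Ndufs5, an accessory subunit of the intermembrane side, with 49.2 FPKM in spleen and 23.3 in lung, 2.11-fold lower (ratio 0.474, interval 0.362 to 0.622). It rested on about 161 and 86.8 reads, and Ndufs1 was the only other measured complex I gene with a ratio below 1 in FPKM. After TPM rescaling 25 of 36 complex I genes were above 1.

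Complex II, succinate dehydrogenase, had the lowest median ratio of the 5 complexes in FPKM and in TPM, but not after subtraction of length class medians (0.23). Sdha, the flavoprotein that oxidises succinate, had 140 FPKM in spleen and 135 in lung (ratio 0.963, interval 0.922 to 1.007). Sdhb, its iron-sulfur partner, had 213 and 238 FPKM (1.11-fold). The membrane anchors were higher, Sdhc with 62.5 and 84.8 FPKM (1.36-fold) and Sdhd with 116 and 193 (1.66-fold, the one complex II gene past 1.5-fold). The median log2 ratio was 0.30 in FPKM and turned to -0.13 in TPM, where only Sdhc and Sdhd were above 1.

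In complex III, which passes electrons from ubiquinol to cytochrome c, all 8 genes were above 1 in FPKM and 5 in TPM. In FPKM, 3 of 8 were past 1.5-fold (27.4% of all symbols), and in TPM 1 was (17.5%). The median log2 ratio was 0.53 in FPKM. Uqcrq, a small subunit near the cytochrome b core, had 230 FPKM in spleen and 486 in lung (2.11-fold, interval 2.03 to 2.204), the highest ratio among all members over 50 FPKM. Uqcrc2, a core protein on the matrix side, had 93.2 and 155 FPKM (1.66-fold), but its partner Uqcrc1 had 183 and 236 (1.29-fold, 0.958 in TPM). The Rieske iron-sulfur protein Uqcrfs1 had 102 and 137 FPKM (1.34-fold, 0.994 in TPM). The most abundant gene of the complex was Uqcrb with 460 and 684 FPKM (1.49-fold).

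In complex IV, cytochrome c oxidase, all 10 ubiquitous subunits were more than 1.5-fold higher in lung (27.4% of all symbols), with log2 ratios from 0.59 to 1.008. The median length of the 10 was 631.5 nt, and 43.5% of other symbols from 600 to below 1000 nt passed 1.5-fold in FPKM. All 10 stayed above 1 in TPM, where 0 of them passed 1.5-fold (17.5% of all symbols). Of the 14 measured genes of the complex, 3 passed it in TPM, the rare Cox7a1, Cox6b2 and Cox6a2. Over the whole complex the log2 ratios ran from 0.30 to 2.48. The counting intervals of Cox5b, Cox6a1 and Cox8a reached below 1.5-fold. Cox4i1, an early partner of the mitochondrially made core, had 596 FPKM in spleen and 1021 in lung (1.71-fold, interval 1.64 to 1.79). Cox5a had 251 and 487 FPKM (1.94-fold), and Cox5b, which binds zinc, 315 and 475 (1.51-fold). The largest ratio among the abundant subunits was that of Cox6b1, with 545 and 1095 FPKM (2.01-fold, interval 1.92 to 2.11). Cox6c had 501 and 835 FPKM (1.67-fold), Cox7c 143 and 250 (1.75-fold), Cox7b 121 and 205 (1.70-fold), and Cox8a 481 and 728 (1.51-fold). Together these 10 genes summed to 3548 FPKM in spleen and 6046 in lung, or 0.592% and 0.747% of all FPKM. Cox7a2l, whose protein joins complexes III and IV in supercomplexes and is not a ubiquitous subunit of the oxidase, was the one measured complex IV gene below 1.5-fold, with 169 and 207 FPKM (1.23-fold, 0.910 in TPM).

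Several complex IV subunits have alternative genes with a restricted tissue pattern, and these were rare in both libraries. Cox7a1, the form of heart and skeletal muscle, had 1.83 FPKM in spleen and 10.2 in lung (5.58-fold), which rested on about 3.52 and 22.3 reads with an interval of 1.65 to 19.3. Its share of the Cox7a1 and Cox7a2 sum was 1.14% in spleen and 3.52% in lung. Cox6b2, known from testis, had 4.86 and 17.2 FPKM (3.54-fold, interval 2.01 to 7.08), a share of 0.884% and 1.55% beside Cox6b1. Cox6a2, also a muscle form, had 1.498 and 4.15 FPKM (2.77-fold, interval 1.202 to 7.99), a share of 0.341% and 0.616% beside Cox6a1, which had 437 and 669. The general Cox7a2 had 159 and 280 FPKM. Cox6a2 shares 70 exon bases with Itgad on the opposite strand, which had 5.57 FPKM in spleen and 0 in lung, and the unstranded reads cannot assign such bases. Cox4i2, the form known from lung and from low oxygen, had about 1.998 reads in spleen and 0 in lung, and the testis forms Cox7b2 and Cox8c and the muscle form Cox8b had 0 in both. Markers of brown fat and striated muscle, where the muscle forms are abundant, did not reach 1 FPKM in either library (0 of 5), with Ucp1, Myh6 and Ckm at 0 in both.

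**Figure D3:**
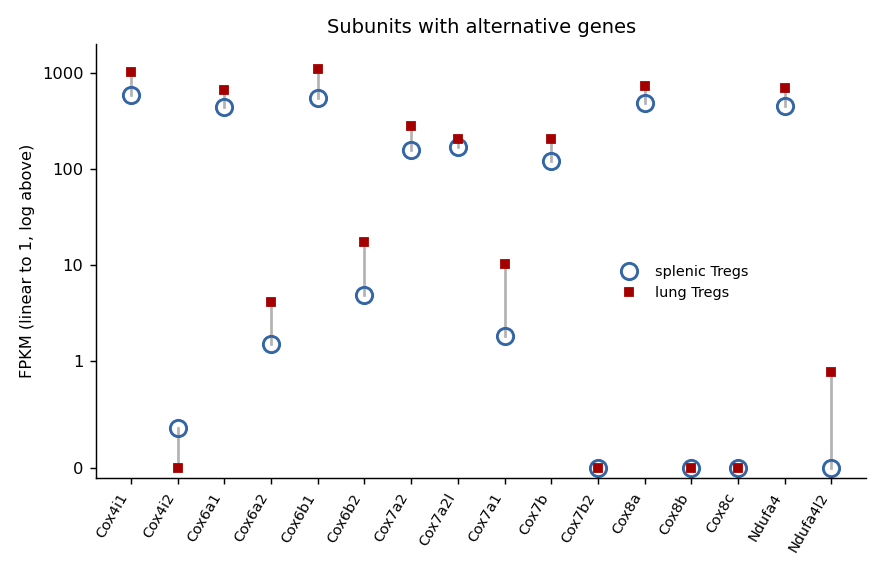
FPKM of subunits that have alternative genes, open circles for splenic and squares for lung Tregs, on an axis that is linear up to 1 FPKM and logarithmic above. The general forms lie above 100 FPKM in both tissues, Cox7a1, Cox6b2 and Cox6a2 between 1 and 20 FPKM with the lung value higher, and Cox7b2, Cox8b and Cox8c at 0.

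In ATP synthase, 7 of 17 genes were more than 1.5-fold higher in lung (27.4% of all symbols) and 2 lower (25.4%). In TPM, 0 were more than 1.5-fold higher (17.5% of all symbols) and 2 lower (41.7%). The median log2 ratio was 0.47 in FPKM and 0.04 in TPM. The catalytic head differed little. Atp5b had 722 FPKM in spleen and 753 in lung (1.04-fold, interval 1.02 to 1.07), and Atp5a1, the α subunit, had 320 and 355 (1.11-fold), both below 1 in TPM. The rotor subunit Atp5c1 had 385 and 532 FPKM (1.38-fold) and Atp5d 289 and 432 (1.498-fold), whereas Atp5e, the smallest part of the rotor, had 340 and 637 (1.87-fold). The small membrane subunits, of which those of Atp5k and Atp5l join pairs of the enzyme, were all past 1.5-fold and stayed above 1 in TPM. Atp5l had 435 and 864 FPKM (1.98-fold), Atp5k 302 and 543 (1.80-fold) and Atp5j2 274 and 464 (1.69-fold). These genes were singled out after their values were seen. The c ring, through which protons pass, is made from 3 genes for the same mature protein. Their shares of the c ring FPKM were 25.7% (Atp5g1), 32.6% (Atp5g2) and 41.7% (Atp5g3) in spleen and 23.3%, 34.2% and 42.5% in lung, so the order was the same in both tissues. Atp5g1 had 231 and 318 FPKM, Atp5g2 293 and 467, and Atp5g3 374 and 580. The genes of the peripheral stalk had a median log2 ratio of 0.43 in FPKM and -0.01 in TPM, with 1 of 4 past 1.5-fold.

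The genes of the Atp5 family that were lower in lung do not encode catalytic or membrane subunits. Atp5s, known as coupling factor B, had 10.2 FPKM in spleen and 5.92 in lung (ratio 0.581, interval 0.439 to 0.764). Atp5sl, a relative of Atp5s whose protein has been tied to the assembly of complex I, had 18.8 and 10.004 FPKM (ratio 0.532, interval 0.444 to 0.634). With Atp5s, Atp5sl and Cox7a2l left out, 40 members were more than 1.5-fold higher and 1 was lower.

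Transcript length moved with these ratios. The median length of the members was 763 nt, against 2656 nt over all measured symbols. Across the 79 members, the log2 ratio and the length in nt had a Pearson correlation of -0.37 and a Spearman correlation of -0.38. Both come from the same pair of libraries. The ratios of other genes also declined with length. Symbols that are not members had a median log2 ratio of 0.55 below 600 nt, 0.46 from there to below 1000 nt, 0.38 to below 1500 nt, 0.09 to below 2500 nt and -0.17 at 2500 nt or more. The members in these classes had 0.60 (24 genes), 0.63 (26), 0.47 (14), 0.35 (11) and 0.19 (4). Among the other symbols, 49.4% of those below 600 nt and 20.8% of those at 2500 nt or more were past 1.5-fold, compared with 13 of 24 and 0 of 4 members. From 600 to below 1000 nt, the class of the median complex I length (760.5 nt), 43.5% of other symbols passed it, compared with 18 of 26 members. In the class from 1000 to below 1500 nt it was 40.0% of other symbols and 6 of 14 members. In that from 1500 to below 2500 nt it was 28.2% and 3 of 11, so members were near the share of other symbols in both. When the median of the length class was subtracted from each ratio, the median of the members fell from 0.59 to 0.11. On this scale the medians were 0.07 for complex I, 0.23 for complex II, 0.13 for complex III, 0.31 for complex IV and 0.14 for complex V. Small subunits of complex III came to -0.004, and the ubiquitous complex IV subunits to 0.26. Uqcrq (1521 nt) kept 0.98, Uqcrc2 (1896 nt) 0.64, Ndufs3 (1046 nt) 0.62 and Atp5g1 (2655.5 nt, the median of its transcripts) 0.62, while Ndufs5 (525 nt) moved to -1.65. The value of Atp5g1, whose log2 ratio was 0.46, rests on the length assigned to it. Atp5g2 (731 nt) and Atp5g3 (718.5 nt) fell in the class from 600 to below 1000 nt, where the median of all symbols was 0.49. What gave the gradient was not tested.

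**Figure D4:**
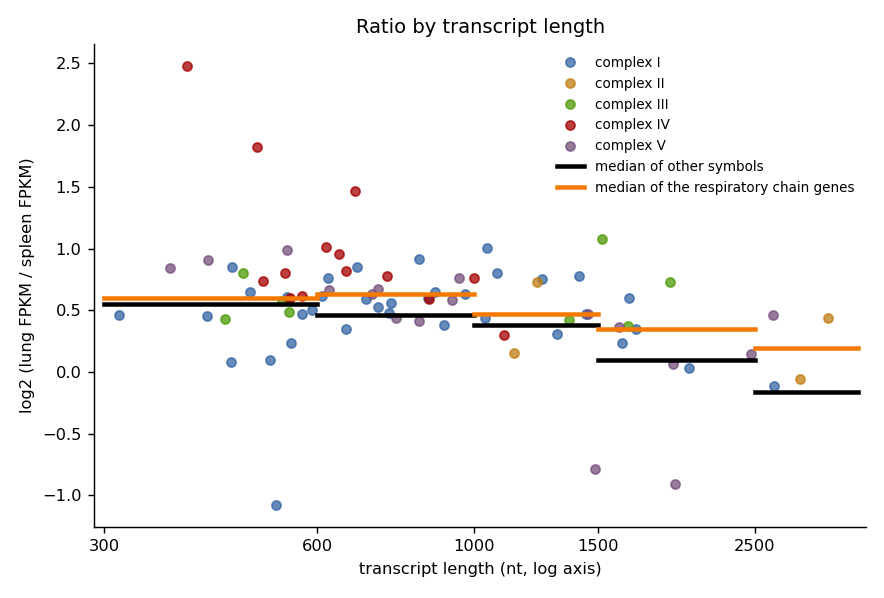
Log2 ratio of lung to spleen FPKM against transcript length in nt (log axis) for the 79 measured members, coloured by complex, with the median of all other symbols (black) and of the members (orange) in each of 5 length classes. Both medians decline with length, from 0.55 to -0.17 for other symbols and from 0.60 to 0.19 for members.

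Promoters of the members were compared because genes of this pathway are known to share binding motifs of NRF1, of the ETS factor GABP and of YY1. The windows run from 250 bases before to 50 bases after the gene start (RefSeq, GRCm38.p6), and 69 members had one. Searching both strands, NRF1 (GCATGCGC) was found in 10 members, or 14.5% against 3.94% of 17492 protein-coding genes. YY1 (AAGATGGC) was found in 11, or 15.9% against 3.57%, and ETS (CCGGAAGT) in 5, or 7.25% against 5.69%. Any of these motifs occurred in 25 members (36.2% against 12.3%). Among measured members, the median log2 ratio was 0.60 with and 0.58 without NRF1, 0.60 and 0.59 for ETS, 0.44 and 0.60 for YY1, and 0.49 and 0.61 for any of them. Shown here are the 250 bases before the start of members with a motif (Atp5l, Uqcr11 and the second start of Atp5j, whose exons share 397 bases with Gabpa on the opposite strand), of the member with the lowest ratio (Ndufs5), and of the muscle and general forms of 1 subunit (Cox7a1 and Cox7a2), 5′ to 3′ in the direction of the gene, with motifs in capitals.
Atp5l (chr9:44920743-44920992, minus strand): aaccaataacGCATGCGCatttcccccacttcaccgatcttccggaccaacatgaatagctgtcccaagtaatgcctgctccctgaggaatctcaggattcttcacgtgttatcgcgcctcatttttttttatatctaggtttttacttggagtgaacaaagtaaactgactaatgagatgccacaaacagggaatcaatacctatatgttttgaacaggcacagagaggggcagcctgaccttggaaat
Uqcr11 (chr10:80406822-80407071, minus strand): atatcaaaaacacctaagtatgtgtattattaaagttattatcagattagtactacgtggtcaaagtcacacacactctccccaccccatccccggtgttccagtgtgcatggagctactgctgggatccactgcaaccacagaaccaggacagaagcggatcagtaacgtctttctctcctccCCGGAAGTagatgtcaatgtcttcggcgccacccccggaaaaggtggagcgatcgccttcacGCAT
Atp5j (chr16:84834977-84835226, minus strand): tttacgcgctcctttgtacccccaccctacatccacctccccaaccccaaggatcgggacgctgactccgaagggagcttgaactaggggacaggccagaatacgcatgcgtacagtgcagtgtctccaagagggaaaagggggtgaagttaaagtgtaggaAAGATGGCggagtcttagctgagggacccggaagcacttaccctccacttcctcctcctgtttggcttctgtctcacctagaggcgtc
Ndufs5 (chr4:123718187-123718436, minus strand): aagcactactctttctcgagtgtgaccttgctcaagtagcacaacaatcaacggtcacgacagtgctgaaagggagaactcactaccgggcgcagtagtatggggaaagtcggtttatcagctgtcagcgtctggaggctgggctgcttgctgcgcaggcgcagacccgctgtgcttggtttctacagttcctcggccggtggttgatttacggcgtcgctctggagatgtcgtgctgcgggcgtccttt
Cox7a1 (chr7:30183921-30184170, plus strand): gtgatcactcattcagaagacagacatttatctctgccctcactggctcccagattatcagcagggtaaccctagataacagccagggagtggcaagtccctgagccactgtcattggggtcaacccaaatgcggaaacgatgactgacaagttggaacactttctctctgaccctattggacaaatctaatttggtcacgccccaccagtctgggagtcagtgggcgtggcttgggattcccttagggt
Cox7a2 (chr9:79759854-79760103, minus strand): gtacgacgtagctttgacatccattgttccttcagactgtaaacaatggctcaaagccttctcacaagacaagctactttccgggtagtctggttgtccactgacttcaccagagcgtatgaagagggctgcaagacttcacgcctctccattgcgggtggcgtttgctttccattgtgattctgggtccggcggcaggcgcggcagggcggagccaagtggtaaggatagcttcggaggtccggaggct
The capitals are NRF1 in Atp5l, ETS in Uqcr11 and YY1 in Atp5j, and those at the end of the Uqcr11 window begin an NRF1 match that runs past the gene start. The windows of Ndufs5, Cox7a1 and Cox7a2 held none of these letters. Uqcr11, which held both NRF1 and ETS, had 378 FPKM in spleen and 509 in lung (1.35-fold, 0.9999 in TPM), and Atp5j had 602 and 816 (1.36-fold, 1.0046 in TPM).

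Of the genes for these factors, Nrf1 (2.40-fold) and Gabpa (4.55-fold) were more than 1.5-fold lower in lung in FPKM, whereas Yy1 (1.31-fold lower) was not. Among 14 measured regulators of mitochondrial biogenesis, 10 were more than 1.5-fold lower in lung (25.4% of all symbols) and 0 higher (27.4%). In TPM, 12 were lower (41.7% of all symbols) and 0 higher (17.5%). The median log2 ratio was -1.04 in FPKM (-0.92 after subtraction of the length class median, -1.47 in TPM). Nrf1 had 37.0 FPKM in spleen and 15.4 in lung, and Gabpa, the DNA-binding subunit of GABP, 14.9 and 3.27. Esrra, a nuclear receptor that acts with PGC-1 coactivators, had 5.17 and 0.0418 FPKM, the latter about 1 read, and the mitochondrial RNA polymerase gene Polrmt had 8.85 and 1.48. Tfam, which packages mitochondrial DNA, had 17.1 and 7.60 FPKM. Gabpb1, the partner of Gabpa, was the one measured gene above 1, with 34.3 and 44.7 FPKM (1.30-fold), although not in TPM, where 0 of 14 were above 1. Yy1 had 15.0 and 11.5 FPKM, and Ppargc1a, which encodes PGC-1α, was below 0.1 FPKM in both libraries. Tfb1m, which modifies mitochondrial ribosomal RNA, had 8.65 and 8.53. The median length of these transcripts was 3705.5 nt, and symbols of 2500 nt or more had a median of -0.16 in FPKM.

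In FPKM, other mitochondrial lists had lower median ratios than the subunits. Counts below are of genes more than 1.5-fold higher or lower in lung. Of all measured symbols, 27.4% were higher and 25.4% lower in FPKM, and 17.5% and 41.7% in TPM. Of 8 chain components outside the symbol rule, 3 were higher and 0 lower in FPKM, and 1 higher and 2 lower in TPM. Their median log2 ratio was 0.36 in FPKM and -0.08 in TPM. They included Cycs, the electron carrier cytochrome c (68.4 and 110 FPKM), and Atpif1, the inhibitor of ATP synthase (41.7 and 91.8 FPKM), whereas Cyc1, the cytochrome subunit of complex III, had 139 and 162. Dhodh and Etfdh, which feed electrons to ubiquinone, had 13.2 and 9.18 FPKM and 26.8 and 23.8 FPKM. Assembly factors had 9 of 44 higher and 5 lower in FPKM, and 3 higher and 8 lower in TPM (median 0.25 in FPKM, -0.18 in TPM). The copper carrier Cox17 (195 and 443 FPKM) and the complex I factor Ndufaf2 (16.8 and 38.3) were highest in ratio, and Bcs1l, which inserts the Rieske protein into complex III (8.99 and 0.903), and Ecsit (27.2 and 3.94) were lowest. Mitochondrial ribosomal proteins had 15 of 77 higher and 5 lower in FPKM, and 3 higher and 13 lower in TPM. Their median was 0.28 in FPKM and -0.15 in TPM. They ran from Mrps22 (14.7 and 5.06 FPKM) and Mrpl44 (26.6 and 11.04) to Mrpl33 (245 and 562) and Mrpl34 (35.2 and 81.1). TCA cycle enzymes, which supply NADH and succinate to the chain, had 3 of 18 higher and 0 lower in FPKM. In TPM, 0 were higher and 5 lower. Their median was -0.01 in FPKM and -0.44 in TPM. Citrate synthase (Cs) had 89.7 and 69.4 FPKM and Pdha1 75.8 and 55.1, while Idh2 (35.6 and 55.0) and Pcx (1.21 and 2.37) were the highest. The list also held genes of pyruvate dehydrogenase (Pdha1, Pdhb and Dlat) and of pyruvate carboxylase (Pcx), which are not enzymes of the cycle itself. The median length was 2590 nt for the TCA cycle enzymes and 763 nt for the respiratory chain genes, and after subtraction of the length class medians the medians were 0.08 and 0.11. On that scale the chain components outside the symbol rule had 0.12, the assembly factors 0.09 and the mitochondrial ribosomal proteins 0.03. The respiratory chain genes thus did not have the highest median after this subtraction.

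**Figure D5:**
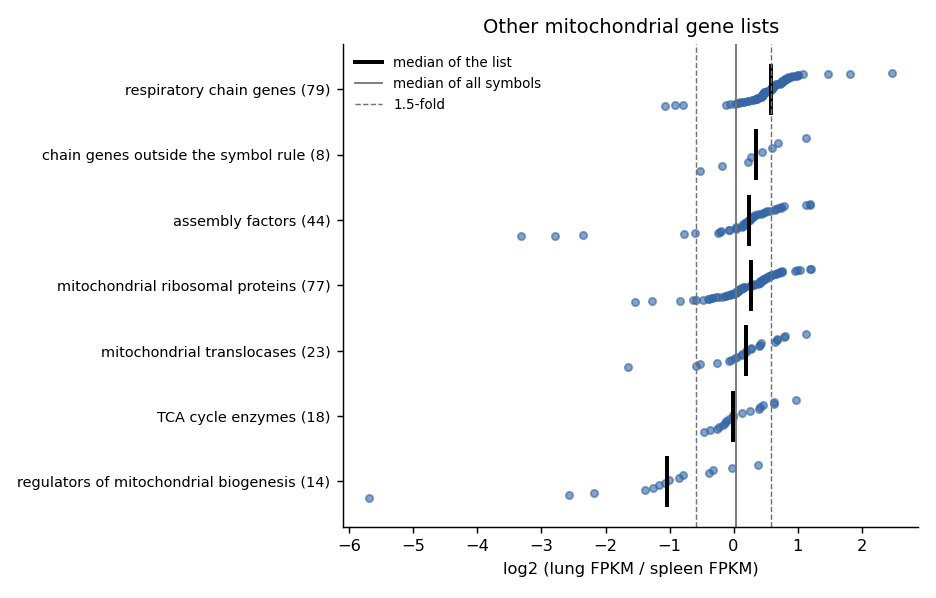
Log2 ratio of lung to spleen FPKM for measured genes of each list, 1 point per gene, with the number of genes in parentheses and the median of each list as a black bar. In FPKM, the respiratory chain genes have the highest median (0.59), the TCA cycle enzymes lie around the median of all symbols, and 13 of 14 regulators lie below 0. After subtraction of the length class medians (not drawn), the chain genes outside the symbol rule have 0.12 and the respiratory chain genes 0.11.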

How the data were processed

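Full-length cDNA of GFP+CD4+ cells was prepared with SMART-Seq HT and NexteraXT, which keep no strand and add no molecular identifiers, and sequenced as 75-base single-end reads. Per the labels, the submitters' processing notes name TopHat2 2.1.1, Bowtie2 2.2.8, SAMtools 0.1.18, Cuffdiff 2.2.1 and mm10. The deposited values are FPKM per symbol, calculated by the authors with Cuffdiff. The annotation and the options of Cuffdiff are not given in the sources used here.

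Samples were grouped by their tissue labels. Values below 0.1 FPKM were set to 0.1, lung was divided by spleen for symbols whose higher value was at least 1 FPKM, and folds past 1.5 were counted. With 1 library per tissue no test was run. The members and lists were chosen with earlier results of these data known. Members named were the 5 highest and 5 lowest ratios, the most abundant of each complex, catalytic and core subunits, isoform families and genes next to the threshold, and, of other lists, both ends. Members named beside these, and the regulators other than Esrra, Polrmt, Gabpb1 and Tfb1m, were chosen after their values were seen, as was Cyc1. The values of a withheld item are not reported here.

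Lengths are the median of GENCODE M21 transcripts tied to RefSeq, found for all 84 members and 23671 symbols. Of the members, 81 matched RefSeq by symbol and 3 by synonym. Estimated reads used effective lengths for fragments of 200 nt (SD 80, shortest 75) and the value at which FPKM times effective length recurred most often in transcripts of 1500 nt or longer (215 splenic and 132 lung genes within 0.5% of it). This put 1 read per effective kb at 0.0964 FPKM in spleen and 0.0849 in lung, and reads summed to about 9862860 and 12880000. Scripts were tested on simulated data. Alternatives were floors of 0.01 and 1 FPKM, a pseudocount of 1 FPKM, other minima (none, 10 FPKM), rescaling to TPM, to equal upper quartiles or to a median ratio of 1, a 2-fold threshold, and the members without Atp5s, Atp5sl and Cox7a2l. Length classes and exon overlap were added after the data were seen. The software was Python 3.11.15 with scipy 1.17.1, matplotlib 3.10.9, numpy 2.4.6 and pandas 2.3.3.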

Additional observations from a re-analysis of the deposited data

How the results depend on the processing

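No paired analysis was possible because each tissue had 1 library, and no library could be left out. Floors of 0.01 and 1 FPKM, a pseudocount of 1 FPKM, other minima and rescaling to equal upper quartiles or to a median ratio of 1 kept the direction of all medians, and the median of all members lay between 0.57 and 0.59, with 35 to 41 members more than 1.5-fold higher and 3 to 4 lower. Rescaling to TPM changed the median of all members to 0.16, with 4 members higher, and the medians to 0.082 for complex I, -0.13 for complex II (reversed), 0.10 for complex III, 0.36 for complex IV and 0.036 for complex V. Past 2-fold, 6 members were higher and 1 lower, and without Atp5s, Atp5sl and Cox7a2l 1 was lower at 1.5-fold.

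Subtracting the median of the length class, added after the data were seen, gave 0.11 for all members with 8 higher, 0.072 for complex I, 0.23 for complex II, 0.13 for complex III, 0.31 for complex IV and 0.14 for complex V. The share of all symbols past the fold on this scale is not given here, so the count of 8 cannot be set against it. Among members with no exon overlap, also added later, 26 were higher, with fewer genes counted. Signs were followed for 42 measured members, without Ndufb9 and without members named after their values were seen. Of these 42, 33 kept the sign of their ratio under TPM and 33 under the length classes. All that were measured kept it under the other settings. Counting error left 15 of the 40 higher calls and 1 of the 3 lower calls with an interval that crosses 1.5-fold, and was widest for rare isoforms such as Cox7a1, with about 3.52 reads in spleen.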

Other observations

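Genes named for the translocases that bring proteins into mitochondria and genes of the cell cycle were set beside the respiratory chain. Over all measured symbols, 27.4% were more than 1.5-fold higher in lung and 25.4% lower in FPKM, and 17.5% and 41.7% in TPM. Of 23 measured symbols beginning with Tomm or Timm, 6 were higher and 2 lower by this fold, and 1 and 4 in TPM. Their median log2 ratio was 0.20 in FPKM, -0.23 in TPM and -0.07 after subtraction of the length class medians. Among the higher ones is Tomm6os (2.53 and 5.54 FPKM), an RNA of the strand opposite Tomm6 that is no translocase gene, and without strand its reads cannot be told apart from those of Tomm6 where the genes overlap. Timm50 (49.8 and 87.2) had the next highest ratio, and Tomm40l (8.93 and 2.85) and Timm9 (24.0 and 16.0) the lowest. Of 10 proliferation genes, 2 were higher, Birc5 (10.7 and 25.6 FPKM) and Ccnb1 (5.40 and 11.04), and 0 lower, while Mcm2 (27.4 and 20.8) and Pcna (117 and 90.3) had the lowest ratios. In TPM, 2 of the 10 were higher and 2 lower by this fold. The median of these genes was 0.44 in FPKM, 0.00 in TPM and 0.48 after subtraction of the length class medians.

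Many respiratory chain genes lie beside or across another gene, and 29 of 84 share exon bases with one, of which 19 overlap a gene listed at 1 FPKM or more. Ndufb5 shares 616 bases with Mrpl47 on the opposite strand, which had 19.6 FPKM in spleen and 19.5 in lung, while Ndufb5 had 83.9 and 146. Atp5f1 shares 337 bases with Wdr77 (23.9 and 20.5 FPKM) and had 194 and 249. Without strand, reads from shared bases cannot be assigned to either gene of such a pair. These pairs were chosen after the values were seen.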
